A study of Mus musculus with 10 samples.

Results

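The nuclear genes that encode complexes II to V of the mitochondrial respiratory chain, with cytochrome c, were followed in mouse jejunum with and without the yeast enzyme NDI1. They were chosen by symbol alone, as the rows named Sdha to Sdhd, Uqcr-, Cyc1, Cycs, Cox4- to Cox8- or Atp5-, without the 4 matching rows whose symbol holds -ps (pseudogenes, at most 4 reads in any library). This took 49 of the 45707 rows. They comprise 4 genes of complex II, 9 of complex III, 1 of cytochrome c, 18 of complex IV and 16 of complex V. The last is Atp5sl, which shares a name with the ATP synthase genes but is known as an assembly factor of complex I. Cox7a2l, counted here with complex IV, is known as a supercomplex assembly factor related to subunit 7A. All 49 identifiers are protein-coding genes of the GENCODE M21 annotation (GRCm38). They lie on 19 chromosomes, with 7 on chromosome 7 and 1, Cox7b, on the X. The rule used no measured value, but the set itself was chosen with earlier results of these data known. In the annotation 14 of them overlap a gene on the other strand and 6 a gene on the same strand, and many have processed pseudogenes elsewhere, so reads may be shared with these. Atpif1, Usmg5 and Ndufa4, whose products also belong to complexes V and IV, carry other symbols in this table and were kept apart.

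Complex II, succinate dehydrogenase, passes electrons from succinate to ubiquinone and is encoded wholly in the nucleus. Complex III, the cytochrome bc1 complex, hands them from ubiquinol to cytochrome c, complex IV, cytochrome c oxidase, hands them to oxygen, and complex V, ATP synthase, uses the proton gradient that complexes I, III and IV build. Complexes III to V each join nuclear subunits to subunits made from mitochondrial DNA, and several nuclear subunits of complex IV exist as isoforms typical of heart and muscle, lung or testis. Absorptive enterocytes of the small intestine are rich in mitochondria.

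The samples were 5 Vil-Cre and 5 Vil-Cre:NDI1 mice, with 1 jejunal RNA-sequencing library each. NDI1 of Saccharomyces cerevisiae is a single-protein NADH dehydrogenase that oxidises NADH without pumping protons. It was carried behind a lox-stop-lox cassette at ROSA26 and released by Cre under the Villin promoter, which is active in intestinal epithelial cells, whereas flushed whole jejunum was sequenced. Both genotypes carried Vil-Cre. All were male littermates of 8 to 12 weeks that had gone without food for 16 to 18 h and received water, no drug, by gavage 1 h before collection. In bulk tissue, fewer cells of a type and less RNA per cell cannot be told apart.

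Values are normalized counts, that is, reads assigned to each gene with Salmon and divided, as the values themselves show, by 1 size factor per library. The libraries held 10145705 to 12371530 reads on genes. NDI1 had at most 1 read in each Vil-Cre library and 1002 to 2659 reads in each Vil-Cre:NDI1 library, so the transgene went with the labels. The enterocyte gene Vil1 stood at 35067 to 49249 normalized counts in all 10 libraries. Genotypes were compared with limma on log2(normalized count + 1) over the 14301 genes with at least 10 normalized counts in at least 5 mice, and p-values were adjusted over all of these by the Benjamini-Hochberg method. Log2 fold changes are Vil-Cre:NDI1 over Vil-Cre and understate the change of low genes. Each gene was tested, in addition, by exact permutation of the genotypes among the mice (two-sided), where the smallest possible p is 0.00794.

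Of the 49 genes, 44 passed this filter. The 5 that did not were Cox4i2, Cox6a2, Cox8b, Cox8c and Cox7b2, all isoforms of complex IV subunits. In each of the 10 mice 37 genes had over 1000 normalized counts. Among tested genes Atp5s had the lowest mean (43.6 normalized counts in Vil-Cre mice) and Atp5b the highest (20527). Together the 49 genes held 1.26% ± 0.0558 of all normalized counts in Vil-Cre mice and 1.28% ± 0.112 in Vil-Cre:NDI1 mice (SD, n = 5 each), with 1.13% to 1.39% over the single mice. These groups overlapped, and their means lay closer together than 1 SD of either. Complex V took about 0.631% and 0.638%, complex IV 0.299% and 0.303%, complex III 0.183% and 0.187%, and complex II 0.115% and 0.121%.

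**Figure D1:**
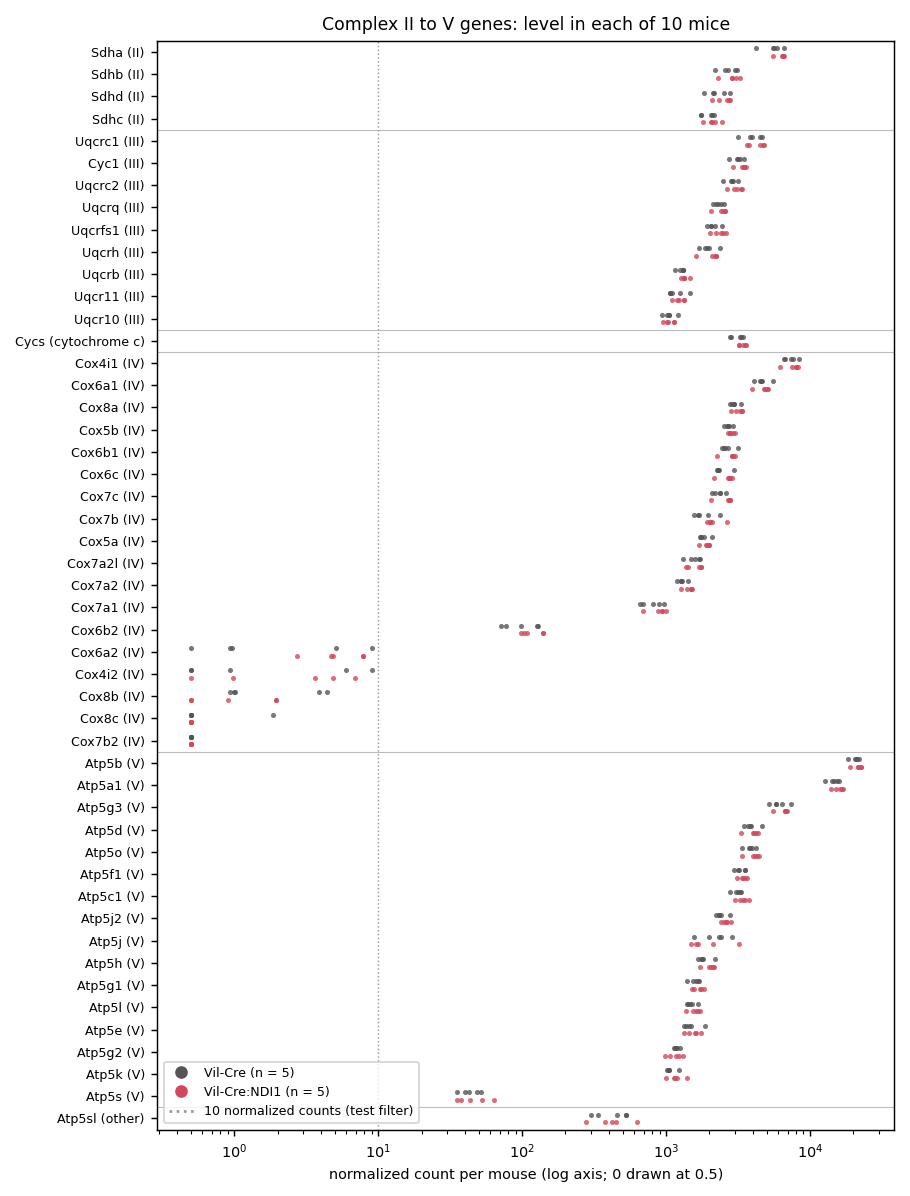
Normalized counts (log axis, 0 drawn at 0.5) of the 49 genes in each of 10 mice, ordered by complex and mean, with Vil-Cre in grey and Vil-Cre:NDI1 in red. Atp5b stands highest, 5 isoforms of complex IV lie at or below 10 normalized counts, and the 2 colours overlap in every tested row.

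Between the genotypes none of the 44 genes differed past an adjusted p of 0.05, against 0.00699% of all tested genes (1 gene, NDI1). The adjusted p-values of the 44 lay between 0.998 and 0.999 by limma. At an unadjusted p under 0.05 the count was again 0, where 4.24% of all genes passed. In none of the 44 were the 5 mice of one genotype all above the 5 of the other, a pattern found in 0.699% of all genes. Run on the recovered reads, DESeq2 and edgeR also called 0 of these genes, with 1 and 0 at an unadjusted p under 0.05 (4.81% and 4.65% of all genes). On the 8 libraries other than Vil-Cre 3 and 4, a choice made after seeing the data, no gene of the set was called either, and these numbers were 11 of 48 genes by DESeq2 (8.11% of all genes) and 3 by edgeR (8.74%).

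The point estimates leaned one way. The log2 fold change was above 0 for 41 of 44 genes, against 51.2% of all genes, with a median of 0.087 against 0.0052 over all genes. By complex the medians were 0.13 (II), 0.084 (III), 0.091 (IV) and 0.082 (V). All 4 genes of complex II, all 9 of complex III and all 13 tested genes of complex IV were above 0, as were 14 of 16 of complex V. The exceptions were Atp5j, Atp5g2 and Atp5sl. Most of the 44 genes moved together over the mice (median Pearson's r with the others 0.87, described below). These counts are therefore not counts of independent genes. For each mouse the median deviation of these genes from their own means was taken. Its spread between mice, within the genotype that varied more, was 0.112 on the log2 scale (SD). The median of 0.087 was smaller than this, but the SD is that of single mice, and group means vary less. With each library scaled to the same total, 31 of 44 were above 0 (36.2% of all genes) and the median was 0.024. This scaling lowered genes in general and moved the median of all genes to -0.057. Relative to the median of all genes the lean was the same, with 41 of 44 above it and a distance of 0.081, against 41 of 44 and 0.082 before. After quantile normalization 30 of 44 were above 0 (50.6% of all genes) and the median was 0.034, which is 0.032 above that of all genes. Without Vil-Cre 5 the median of the 44 was 0.053, without Vil-Cre 3 it was 0.14 and without Vil-Cre:NDI1 4 it was 0.14. Single genes moved likewise, by over 1.5 times in 25 of the 30 genes examined so, for example from 0.012 to 0.17 for Sdhb, from 0.020 to 0.16 for Uqcrc1 and from 0.087 to 0.24 for Sdha, according to the mouse left out.

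The intervals bound how large a change could be. For 42 of 44 genes the 95% interval of the fold change lay within 1.5-fold in both directions, which was the case for 53.5% of all genes tested. The exceptions were Cox6b2 and Atp5j.

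**Figure D2:**
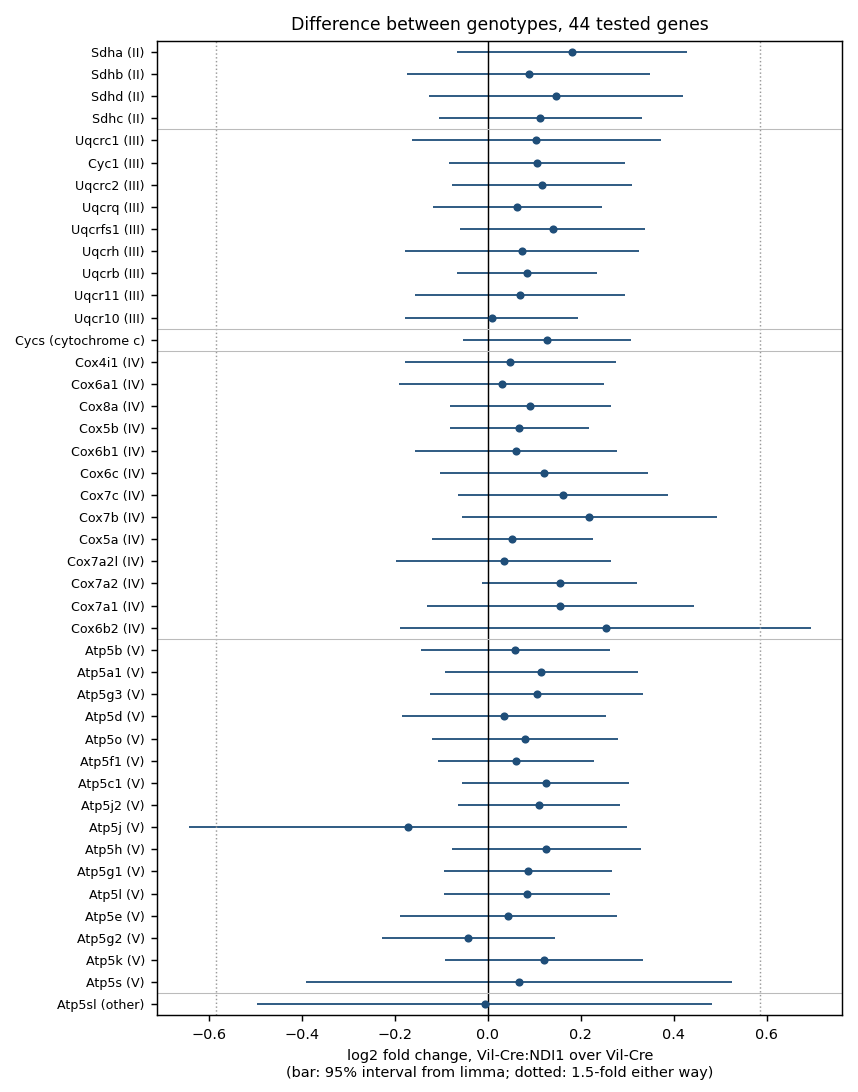
Log2 fold change (Vil-Cre:NDI1 over Vil-Cre, 5 mice each) of the 44 tested genes by complex, with bars for the 95% interval from limma and dotted lines at 1.5-fold. Most points lie right of 0, every bar crosses 0, and only the bars of Cox6b2 and Atp5j pass a dotted line.

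In complex II, the flavoprotein Sdha (ENSMUSG00000021577, chr13:74322254-74350280), which oxidises succinate, had the highest counts. Its normalized counts were 5653, 6567, 5531, 5865 and 4242 in Vil-Cre mice 1 to 5, and 6583, 6362, 6459, 5499.8 and 6437 in Vil-Cre:NDI1 mice 1 to 5. Vil-Cre 5 and Vil-Cre:NDI1 4 were lowest within their genotypes, and Vil-Cre 2 reached the upper end of the Vil-Cre:NDI1 range. Sdha had a log2 fold change of 0.18 (SE 0.113) and an exact permutation p of 0.159.

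The iron-sulfur subunit Sdhb (chr4:140961203-140979193) had 2706 ± 367 normalized counts in Vil-Cre and 2874 ± 371 in Vil-Cre:NDI1 mice (SD, n = 5), a log2 fold change of 0.087 (SE 0.120). The membrane anchor Sdhc (chr1:171127165-171150603) had 1953 ± 199 normalized counts in Vil-Cre and 2113 ± 241 in Vil-Cre:NDI1 mice, and its log2 fold change was 0.11 (SE 0.10). The other anchor, Sdhd (chr9:50596357-50603812), had 2282 ± 377 normalized counts in Vil-Cre and 2514 ± 302 in Vil-Cre:NDI1 mice, with a log2 fold change of 0.15 (SE 0.125). In all of these the difference of means was smaller than 1 SD of either group. Per kilobase of exons, which allows genes to be compared, Sdhd was highest in complex II at 1948 normalized counts and Sdhc lowest at 626. With the longest transcript as the length Sdhb was highest, at 2265, and Sdhc again lowest.

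Complex III genes lay close together in level, from 1055 (Uqcr10) to 4147 (Uqcrc1) normalized counts on average. Cytochrome c1, encoded by Cyc1 (chr15:76343523-76346260), carries the heme that reduces cytochrome c. Cyc1 had normalized counts of 3098, 3174, 3452, 3268 and 2718 in Vil-Cre mice 1 to 5, and 3502, 3465, 3605, 2925 and 3388 in Vil-Cre:NDI1 mice 1 to 5. Again Vil-Cre 5 and Vil-Cre:NDI1 4 were lowest within their genotypes, and the groups overlapped. The log2 fold change was 0.10 (SE 0.0864), exact permutation p 0.222.

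The core proteins Uqcrc1 (chr9:108936633-108949623) and Uqcrc2 (chr7:120635176-120659524), which frame the matrix side of the complex, had log2 fold changes of 0.10 (SE 0.123) and 0.12 (SE 0.0888). The Rieske iron-sulfur protein Uqcrfs1 (chr13:30540308-30545362), which takes the electron from ubiquinol, had 2130.3 ± 189 normalized counts in Vil-Cre and 2348 ± 230.2 in Vil-Cre:NDI1 mice and a log2 fold change of 0.14 (SE 0.0906), the largest of complex III. Among the small supernumerary subunits, Uqcr11 (chr10:80402997-80406830) was highest per kilobase of exons at 1889.6 normalized counts, with 1186 ± 172 normalized counts in Vil-Cre and 1237 ± 99.0 in Vil-Cre:NDI1 mice. With the longest transcript as the length Uqcrh was highest of these, at 2514, and Uqcr11 stood at 2002. The remaining members, Uqcr10, Uqcrb, Uqcrh and Uqcrq, had log2 fold changes from 0.0077 (Uqcr10) to 0.084 (Uqcrb). For Uqcrb, Uqcrh and Uqcrc2 the values are uncertain, because a gene on the other strand overlaps each of them. Whether reads were counted by strand is not given in the sources used here. The same limit applies to the others of the 14 genes with such an overlap, among them Sdha, Cox4i1, Cox5a and Atp5a1.

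Cytochrome c itself, the soluble carrier between complexes III and IV, is encoded by Cycs (chr6:50562563-50566538). It had normalized counts of 2808, 3281, 3328, 2791 and 3418 in Vil-Cre mice 1 to 5, and 3233, 3597, 3217, 3535 and 3442 in Vil-Cre:NDI1 mice 1 to 5. Here Vil-Cre 1 and 4 were lowest, and Vil-Cre 5 and Vil-Cre:NDI1 4, low for the complex genes described above, were among the higher values. Cycs had a log2 fold change of 0.13 (SE 0.0823), exact permutation p 0.135, with a 95% interval from -0.053 to 0.31.

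Of the 18 complex IV genes, 13 were tested. The smallest p among the 44 genes belonged to Cox7a2 (ENSMUSG00000032330, chr9:79755361-79759878), the liver-type isoform of subunit 7A. Its normalized counts were 1280.2, 1262, 1421, 1271 and 1196 in Vil-Cre mice 1 to 5, and 1399, 1499.7, 1484, 1272 and 1501 in Vil-Cre:NDI1 mice 1 to 5. Only Vil-Cre 3 among the controls reached the range of 4 of the Vil-Cre:NDI1 mice, while Vil-Cre:NDI1 4 lay among the controls. Cox7a2 had a log2 fold change of 0.15 (SE 0.0758), with a limma p of 0.0664 before and 0.998 after adjustment and an exact permutation p of 0.0556.

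Cox7b (chrX:106015700-106022450), a small subunit and the 1 gene on the X chromosome, had normalized counts of 2365, 1951, 1569.9, 1683 and 1653 in Vil-Cre mice 1 to 5, and 1934, 2638, 2003, 2019 and 2084 in Vil-Cre:NDI1 mice 1 to 5. Vil-Cre:NDI1 2 and Vil-Cre 1 stood above the rest of their genotypes. The log2 fold change was 0.22 (SE 0.125), exact permutation p 0.127. For the small subunit Cox7c (chr13:86044816-86046904) the values were 2321 ± 203 normalized counts in Vil-Cre and 2605 ± 318 in Vil-Cre:NDI1 mice, and the log2 fold change was 0.16 (SE 0.103). Vil-Cre:NDI1 4, at 2041, lay below all 5 Vil-Cre mice for Cox7c.

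Cox4i1, Cox5a and Cox5b pack around the catalytic core, which itself comes from mitochondrial DNA. Cox4i1 (chr8:120668222-120674207), the ubiquitous isoform of subunit 4 and the complex IV gene with the highest counts, had normalized counts of 7396, 7586, 8445, 6695 and 6580.0 in Vil-Cre mice 1 to 5, and 7508, 8047, 8251, 6203 and 7984 in Vil-Cre:NDI1 mice 1 to 5. The values of the genotypes interleaved, and the log2 fold change was 0.048 (SE 0.104). It was -0.057 after quantile normalization, and -0.014 with equal totals, where it still lay 0.043 above the median of all genes. Cox5a (chr9:57521274-57532426) had a log2 fold change of 0.052 (SE 0.0794), and with equal totals -0.010, still 0.047 above the median of all genes. Cox5b (chr1:36691449-36693681), which binds zinc, was the steadiest of the 44 genes over the 10 mice, with a coefficient of variation of 5.39%. Cox5b had normalized counts of 2636, 2751, 2511, 2699.6 and 2921 in Vil-Cre mice 1 to 5, and 2937, 2759, 3001, 2766 and 2696 in Vil-Cre:NDI1 mice 1 to 5. The highest Vil-Cre value was in Vil-Cre 5, the mouse where 42 of the 44 genes lay below their means. For Cox5b the log2 fold change was 0.067 (SE 0.0682).

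Complex IV holds the paired isoforms, and these differed widely in level in jejunum. For subunits 4, 6A and 8 the isoform known from lung or from heart and muscle was almost silent. Cox4i2 (chr2:152754173-152765037) had 33 reads in all 10 libraries together, or 0.0878% of Cox4i1 plus Cox4i2 per length. Cox6a2 (chr7:128205435-128206387) had 44 reads, 0.0953% of Cox6a1 plus Cox6a2, and Cox8b (chr7:140898945-140900446) had 16 reads, 0.0930% of Cox8a plus Cox8b. At such depth no difference between genotypes was detectable. The testis isoform Cox6b2 (chr7:4751792-4753094) reached 2.47% of Cox6b1 plus Cox6b2 (4.02% if the longest transcript is used as the length), with 100.1 ± 27.2 normalized counts in Vil-Cre and 117 ± 20.4 in Vil-Cre:NDI1 mice. For Cox6b2 the log2 fold change was 0.25 (SE 0.202) with a wide 95% interval from -0.19 to 0.70. The testis isoform Cox8c had 2 reads in all and Cox7b2 had none, where a count of 0 allows up to 3 reads per library.

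Subunit 7A stood apart. Cox7a1 (chr7:30184144-30186078), the isoform named for heart and muscle, made up 52.2% of Cox7a1 plus Cox7a2 per length of exons (48.9% to 57.1% over the 10 mice), or 45.7% with the longest transcripts as lengths. Its normalized counts were 967, 811, 888, 689 and 656 in Vil-Cre mice 1 to 5, and 929, 885, 938, 696 and 1005 in Vil-Cre:NDI1 mice 1 to 5. Vil-Cre 5, Vil-Cre 4 and Vil-Cre:NDI1 4 were the 3 lowest, and the genotypes overlapped. The log2 fold change was 0.16 (SE 0.131), exact permutation p 0.27. The share of Cox7a1 was 52.2% ± 3.37 in Vil-Cre and 52.2% ± 2.12 in Vil-Cre:NDI1 mice (SD, n = 5), exact permutation p 1.

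The 6 markers of skeletal or cardiac muscle summed to 72.8 to 127 normalized counts in Vil-Cre and 88.1 to 180 in Vil-Cre:NDI1 mice. Most of this was Ckm, at 51.6 to 141 in the 10 mice, and Acta1, at 10.02 to 46.7, while Myh1, Myh2 and Myh6 were at 0 in most mice. The 7 smooth muscle markers summed to 12475 to 26664 and 14456 to 26183. The part of either tissue in the Cox7a1 value was not tested. Of the 7 isoform shares compared between genotypes, none passed a Benjamini-Hochberg adjusted exact permutation test, with the smallest adjusted p at 0.463.

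**Figure D3:**
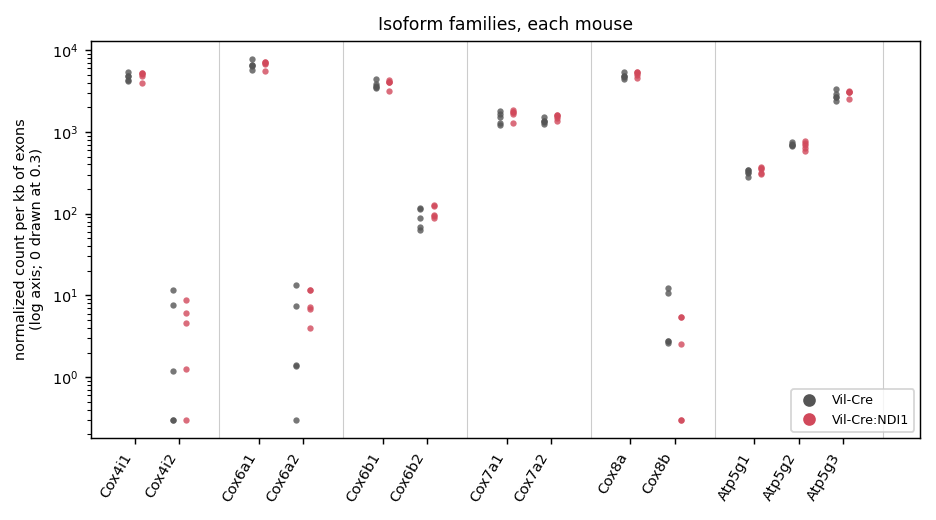
Normalized counts per kilobase of exons (log axis, 0 drawn at 0.3) for 6 isoform families in each mouse, Vil-Cre in grey and Vil-Cre:NDI1 in red. Cox4i2, Cox6a2 and Cox8b lie far below their partners, whereas Cox7a1 lies at the level of Cox7a2.

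The promoters of the contrasting isoform pairs, and of 2 further members, are printed here to set sequence beside level. RefSeq promoter windows, from 250 bases before to 50 after the start of transcription (GRCm38.p6), were found for 38 of the 49 genes. They were searched on both strands for NRF1 (CATGCGC, the core of its site), ETS (CCGGAAG) and YY1 (AAGATGGC) motifs, which are known from genes of the respiratory chain. The 6 windows shown and the NRF1 letters were chosen after their values were seen. Matches are in capitals, and positions count from the start of transcription. The windows are Cox7a1 at chr7:30183921-30184220 (plus strand), Cox7a2 at chr9:79759804-79760103 (minus), Cox8a at chr19:7217567-7217866 (minus), Cox8b at chr7:140900397-140900696 (minus), Cox6a1 at chr5:115348909-115349208 (minus) and Atp5j at chr16:84835576-84835875 (minus).
Cox7a1: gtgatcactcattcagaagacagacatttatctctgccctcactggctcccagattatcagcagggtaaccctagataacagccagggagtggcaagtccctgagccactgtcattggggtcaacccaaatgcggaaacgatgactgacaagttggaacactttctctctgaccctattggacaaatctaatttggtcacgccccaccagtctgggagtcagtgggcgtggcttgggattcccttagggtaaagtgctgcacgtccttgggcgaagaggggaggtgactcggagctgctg
Cox7a2: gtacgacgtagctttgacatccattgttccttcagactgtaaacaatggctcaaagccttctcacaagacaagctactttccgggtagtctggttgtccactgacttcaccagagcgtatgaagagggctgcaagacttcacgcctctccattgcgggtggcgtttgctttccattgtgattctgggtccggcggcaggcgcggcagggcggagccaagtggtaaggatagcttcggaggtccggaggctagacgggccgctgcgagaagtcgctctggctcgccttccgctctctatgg
Cox8a: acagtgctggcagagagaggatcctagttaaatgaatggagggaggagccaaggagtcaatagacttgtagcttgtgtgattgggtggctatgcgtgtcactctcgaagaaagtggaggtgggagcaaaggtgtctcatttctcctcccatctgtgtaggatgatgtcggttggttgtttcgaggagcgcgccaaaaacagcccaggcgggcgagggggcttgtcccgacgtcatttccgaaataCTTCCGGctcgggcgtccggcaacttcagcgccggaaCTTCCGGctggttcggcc
Cox8b: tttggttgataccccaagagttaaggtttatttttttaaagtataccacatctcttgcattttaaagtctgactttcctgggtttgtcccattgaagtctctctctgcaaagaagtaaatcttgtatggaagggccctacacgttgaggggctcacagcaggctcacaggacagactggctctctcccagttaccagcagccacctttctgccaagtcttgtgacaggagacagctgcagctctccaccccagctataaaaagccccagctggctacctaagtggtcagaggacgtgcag
Cox6a1: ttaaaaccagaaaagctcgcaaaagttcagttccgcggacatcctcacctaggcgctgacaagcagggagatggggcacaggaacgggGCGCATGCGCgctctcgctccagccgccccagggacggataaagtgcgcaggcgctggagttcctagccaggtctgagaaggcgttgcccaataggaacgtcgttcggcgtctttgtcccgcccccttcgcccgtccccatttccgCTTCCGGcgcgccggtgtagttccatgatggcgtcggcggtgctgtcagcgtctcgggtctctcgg
Atp5j: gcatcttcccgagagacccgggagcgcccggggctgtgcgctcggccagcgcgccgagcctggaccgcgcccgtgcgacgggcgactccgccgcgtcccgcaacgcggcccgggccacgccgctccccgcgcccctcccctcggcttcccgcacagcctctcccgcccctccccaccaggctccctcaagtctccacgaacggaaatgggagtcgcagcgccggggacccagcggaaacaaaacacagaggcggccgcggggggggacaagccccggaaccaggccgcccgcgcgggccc

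Cox8b, almost silent, held 2 CpG dinucleotides in its window and Cox8a, its expressed partner, 19. Cox7a1 held 7 and Cox7a2 held 20, although their levels per kilobase of exons were alike (1582 and 1439 normalized counts). Cox6a1, the complex IV gene with the highest level per kilobase (6695 normalized counts, or 7581 with the longest transcript as the length, where Cox4i1 reached 9764), held NRF1 matches on either strand that begin at -162 and -159 and overlap each other, and an ETS match at -16. Cox8a held ETS matches at -5 and 33. The letters searched were not in the windows of Cox7a1, Cox7a2, Cox8b or Atp5j, and the window of Atp5j held 43 CpG, the most of the 38.

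Over the 38 windows the median was 19 CpG, against 20 in the 13175 windows of genes that passed the expression filter and 7 in all 32851 windows. An ETS match was present in 28.9% of the 38 windows, against 16.1% of windows of expressed genes and 8.86% of all. For NRF1 the shares were 23.7%, 6.38% and 3.91%, and for YY1 7.89%, 4.11% and 2.75%. The sets were not built alike. Each member gave 1 window, the one nearest its annotated start, whereas the expressed set holds every window whose symbol matched. The 38 also include 2 members that were not tested. In the 36 windows of tested members the shares were 30.6% (ETS), 25% (NRF1) and 8.33% (YY1). A longer NRF1 form of 10 letters, GCGC and TGCGC with any 1 base between, was searched first and gave 23.7%, 9.11% and 4.60%, so the gap to expressed genes was smaller with it. Each form was found in 9 of the 38 windows, and 4 windows held both. In 0 of the 38 windows did matches of different motifs overlap. A match describes the letters only.

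Complex V held the genes with the highest counts. The catalytic beta subunit Atp5b (ENSMUSG00000025393, chr10:128083273-128090391) had normalized counts of 20852, 21164, 21891, 20413 and 18317 in Vil-Cre mice 1 to 5, and 22550, 21618, 22434, 18876 and 21468 in Vil-Cre:NDI1 mice 1 to 5. Vil-Cre 5 and Vil-Cre:NDI1 4 were lowest and lay close to each other. Atp5b had a log2 fold change of 0.059 (SE 0.0927), with a 95% interval from -0.14 to 0.26. It was -0.070 after quantile normalization, and -0.0037 with equal totals, where it still lay 0.053 above the median of all genes. The alpha subunit Atp5a1 (ENSMUSG00000025428), its partner in the catalytic hexamer, had 14588 ± 1224 normalized counts in Vil-Cre and 15789 ± 1213 in Vil-Cre:NDI1 mice and a log2 fold change of 0.11 (SE 0.0945). The gamma subunit of the rotor, Atp5c1 (chr2:10056016-10080510), had 3109.9 ± 206 normalized counts in Vil-Cre and 3394 ± 289 in Vil-Cre:NDI1 mice and a log2 fold change of 0.12 (SE 0.0818). Atp5o (chr16:91925214-91931687), the oligomycin sensitivity conferral protein of the peripheral stalk, had 3829 ± 309 normalized counts in Vil-Cre and 4055 ± 395 in Vil-Cre:NDI1 mice and a log2 fold change of 0.081 (SE 0.0913). A second annotated gene of the same symbol overlaps it, so its reads may have been divided. Factor B, Atp5s (chr12:69724950-69744660), was the lowest tested gene, with 43.6 ± 6.62 normalized counts in Vil-Cre and 46.4 ± 11.7 in Vil-Cre:NDI1 mice, and the log2 fold change was 0.067 (SE 0.209).

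The c subunit of the rotor ring comes from 3 genes that encode the same mature protein. Per length of exons Atp5g3 (chr2:73908447-73911326) made up 73.7% of their sum, Atp5g2 (chr15:102662864-102672352) 17.8% and Atp5g1 (chr11:96068852-96075670) 8.46%, in this order in all 10 mice. With the longest transcripts as lengths the shares were 79.4%, 16.9% and 3.75%. The share of Atp5g2 was 18.6% ± 1.56 in Vil-Cre and 17.1% ± 1.01 in Vil-Cre:NDI1 mice (SD, n = 5), a difference of -1.49 percentage points (exact permutation p 0.111, adjusted 0.463). With 1 mouse left out this difference was -2.12 to -1.04 points, and that of Atp5g3, a part of the same sum, 0.925 to 2.22 points. The largest of both came without Vil-Cre 3, a run picked after its values were seen (exact permutation p 0.0159 and 0.0238 before adjustment). Atp5g2 had normalized counts of 1162, 1173, 1187, 1248 and 1137 in Vil-Cre mice 1 to 5, and 1238, 1300.1, 1169, 983 and 1072 in Vil-Cre:NDI1 mice 1 to 5. Vil-Cre:NDI1 mice covered a wider range on both sides than Vil-Cre mice, and the log2 fold change was -0.042 (SE 0.0848).

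Atp5j (ENSMUSG00000022890, chr16:84827866-84835625), coupling factor 6 of the peripheral stalk, behaved unlike the rest. It had normalized counts of 2344, 2403, 1565, 2886 and 1972 in Vil-Cre mice 1 to 5, and 1609, 2129, 3197, 1500.3 and 1679 in Vil-Cre:NDI1 mice 1 to 5. Vil-Cre:NDI1 3 and Vil-Cre 4 were highest and Vil-Cre:NDI1 4, Vil-Cre 3 and Vil-Cre:NDI1 1 lowest, a 2.13-fold range. The coefficient of variation over the 10 mice was 27.3%, the largest of the 44 genes, whereas 1430 to 3302 reads lay behind each value. The log2 fold change was -0.17 (SE 0.215), with an interval from -0.64 to 0.30 and an exact permutation p of 0.508. Gabpa, which encodes the DNA-binding subunit of an ETS factor and overlaps the start of Atp5j on the other strand, had 389 to 581 normalized counts in the 10 mice and a coefficient of variation of 13.5%. Atp5sl, with 276 to 631 normalized counts, varied nearly as much (25.9%). Of the genes kept apart by symbol, the inhibitor of ATP synthase Atpif1 had 2527 ± 347 and 2778 ± 235 normalized counts, a log2 fold change of 0.14 (SE 0.104). Usmg5, a small subunit of complex V, had a log2 fold change of 0.13 (SE 0.0974), and Ndufa4, a subunit of complex IV with a complex I name, 0.22 (SE 0.141).

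Differences between mice were shared by most of the genes. Counting how many of the 44 lay above their own mean over the 10 mice on the log2 scale, the numbers were 11, 8, 39, 16 and 2 in Vil-Cre mice 1 to 5 and 37, 42, 42, 4 and 31 in Vil-Cre:NDI1 mice 1 to 5. Over all tested genes this share stayed between 49.9% and 51.1% in every mouse. The size factors centre the bulk of genes in each library, so that share was largely fixed by the normalization. Vil-Cre 5 and Vil-Cre:NDI1 4 were the low mice, with median deviations of -0.20 and -0.15 on the log2 scale. Vil-Cre 3, Vil-Cre:NDI1 2 and Vil-Cre:NDI1 3 were the high ones, at 0.12, 0.11 and 0.12. High and low mice thus occurred in both genotypes. The remaining Vil-Cre mice lay slightly below 0 (-0.048, -0.060 and -0.035) and the remaining Vil-Cre:NDI1 mice slightly above it (0.080 and 0.047). In Vil-Cre 5 the genes of complex II deviated most, by a median of -0.36, against -0.21 (III), -0.18 (IV) and -0.18 (V).

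**Figure D4:**
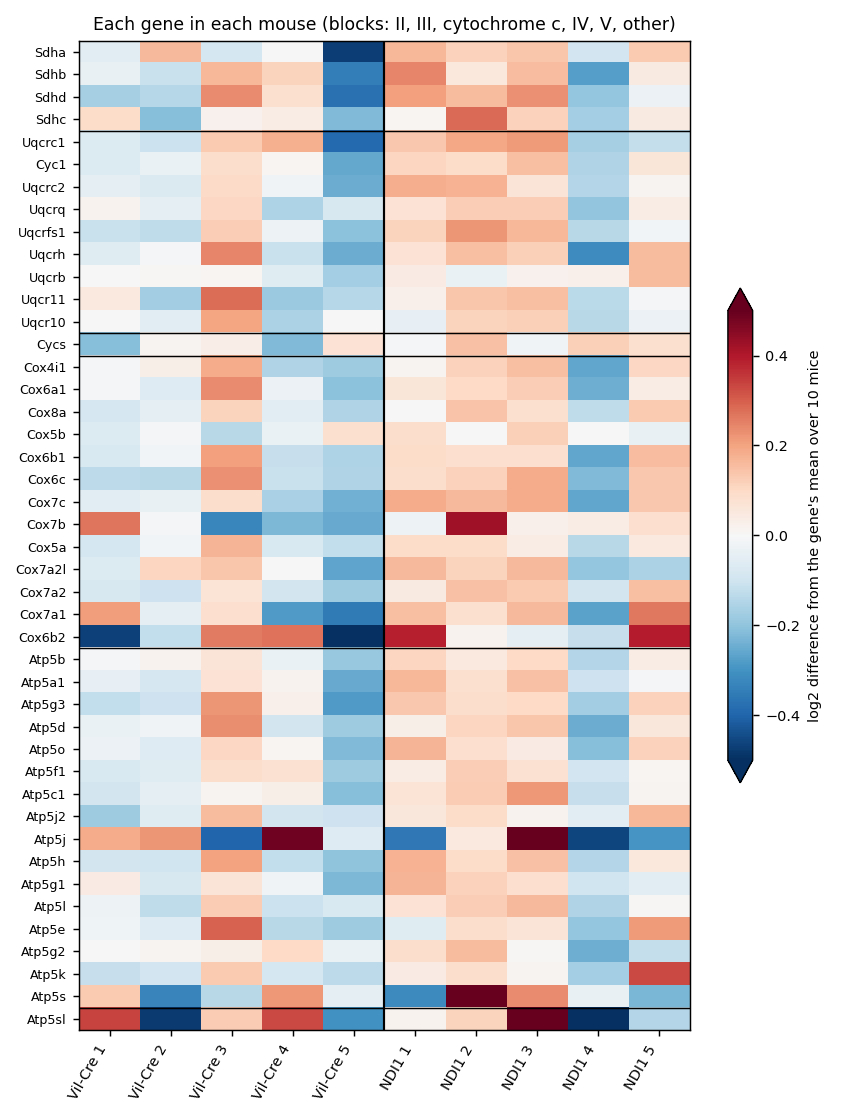
Log2 difference of each of the 44 tested genes from its own mean in each mouse (colour, red above and blue below, clipped at 0.5), with columns for mice and blocks for complexes. The columns of Vil-Cre 5 and Vil-Cre:NDI1 4 are mostly blue and those of Vil-Cre 3, Vil-Cre:NDI1 2 and Vil-Cre:NDI1 3 mostly red, while the rows of Cox5b, Cycs, Atp5j, Atp5s and Cox7b follow the other genes least.

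As a description of this likeness, each gene's values over the 10 mice were correlated with the median of the others. Pearson's r exceeded 0.5 for 38 of 44 genes (86.4%) and had a median of 0.87. For the other 14257 tested genes, against the median of all 44, r exceeded 0.5 in 2144. All points share the size factor of their library. Cyc1 followed the others most closely (0.96), then Uqcrfs1 and Cox6a1 (0.94 each). The 6 genes at or below 0.5 were Cox5b (-0.12), Cycs (0.036), Atp5j (0.075), Atp5s (0.18), Cox7b (0.21) and Uqcrb (0.48). The genes were also steady in general. Among genes with a mean of 1000 to 10000 normalized counts, the median coefficient of variation was 10.1% for the 38 of this set and 12.2% for all 2037.

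Cell type markers moved along with these mouse differences in part. The 10 enterocyte markers summed to 340235 normalized counts in Vil-Cre 5, against at least 476604 in every other Vil-Cre library, and their median deviation in Vil-Cre 5 was -0.57. In Vil-Cre:NDI1 mice the sum was 504903 to 672547, with the lowest value and a median deviation of -0.18 in Vil-Cre:NDI1 4. That value still lay above Vil-Cre 1 and 2 (481184 and 476604). Fabp2, Anpep, Sis and, barely, Vil1 were above their 10-mouse means in Vil-Cre:NDI1 4, and the other enterocyte markers were below theirs. There the goblet, Paneth and stem cell markers had positive median deviations (0.27, 0.53 and 0.61) and the tuft cell markers a negative one (-0.999). In Vil-Cre 4 the enterocyte markers lay above their means (0.12) while 28 of the 44 genes lay below theirs. All 10 enterocyte markers had log2 fold changes above 0 with a median of 0.23, all 6 goblet markers below 0 with a median of -0.21, and none of them was called. The B and plasma cell markers were highest relative to their means in Vil-Cre 5 (median deviation 2.19). The 4 hepatocyte markers, Alb among them, summed to 64.7 to 963 normalized counts in Vil-Cre and 51.9 to 87.1 in Vil-Cre:NDI1 mice. The part of these cell types in the values of the respiratory genes was not tested.

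Other gene groups of the same pathway stood close to the 44. Of 36 nuclear complex I subunits, 31 had a log2 fold change above 0 and 5 below, with a median of 0.065 and none called. Of the 6 genes of complexes III to V on mitochondrial DNA, all were above 0 with a median of 0.11, as were the 7 complex I genes on it with 0.097. None of these was called by limma, and whether the groups differ from each other was not tested. The mitochondrial transcripts of complexes III to V held 3.66% ± 0.507 of all normalized counts in Vil-Cre and 3.77% ± 0.351 in Vil-Cre:NDI1 mice. Mitochondrial transcripts were also set against nuclear ones of the same complex. The summed counts of mt-Co1, mt-Co2 and mt-Co3 were 8.58 ± 0.938 times those of the nuclear complex IV genes in Vil-Cre and 8.66 ± 0.444 times in Vil-Cre:NDI1 mice. The ratio of mt-Cytb to the nuclear complex III genes was 2.99 ± 0.216 and 3.02 ± 0.184, and that of mt-Atp6 and mt-Atp8 to the nuclear complex V genes 0.870 ± 0.0745 and 0.902 ± 0.0675. The groups overlapped in each ratio.

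**Figure D5:**
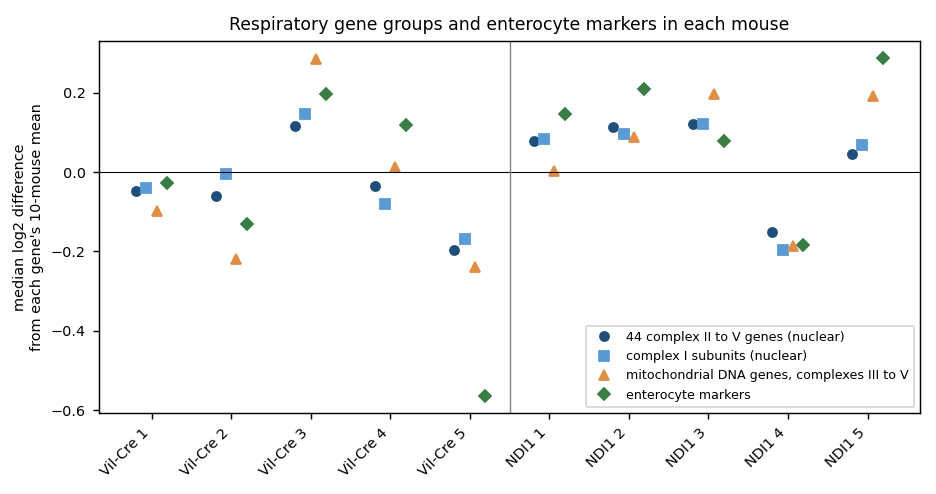
Median log2 difference from each gene's mean over the 10 mice, per mouse, for the 44 genes (dark blue), nuclear complex I subunits (light blue), mitochondrial DNA genes of complexes III to V (orange) and enterocyte markers (green). All 4 groups lie below 0 in Vil-Cre 1, 2 and 5 and in Vil-Cre:NDI1 4. They lie above 0 in Vil-Cre 3 and in Vil-Cre:NDI1 1, 2, 3 and 5, and on both sides of 0 in Vil-Cre 4. Enterocyte markers fall furthest in Vil-Cre 5 (-0.57).

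Of 35 assembly factors for complexes II to V, 34 were tested, with 23 log2 fold changes above 0 and 11 below, a median of 0.047 and 0 called by limma, with 2 at an unadjusted p under 0.05 (5.88%, where 4.24% of all genes passed). One of these 2, Atpaf1 (ENSMUSG00000028710, chr4:115784812-115818828), is named after its values were seen. It encodes the assembly factor that brings Atp5b into the F1 part of ATP synthase. Its normalized counts were 313, 313, 253, 301 and 217 in Vil-Cre mice 1 to 5, and 415, 373, 479, 413 and 378 in Vil-Cre:NDI1 mice 1 to 5. All 5 Vil-Cre:NDI1 mice lay above all 5 Vil-Cre mice, as happened, in either direction, for 0.699% of all genes. Atpaf1 had a log2 fold change of 0.57 (SE 0.124). By limma p was 0.000739 and 0.816 after adjustment, and the exact permutation p was 0.00794, the smallest possible. On recovered reads DESeq2 called Atpaf1 (adjusted p = 0.00833) and edgeR did not (adjusted p = 0.803). The other of the 2 was Cox15, needed for heme A of complex IV, with 873 ± 136 and 1041 ± 103 normalized counts and a log2 fold change of 0.26 (SE 0.112). Among 11 regulators of respiratory gene transcription, 5 log2 fold changes were above 0 and 6 below, with a median of -0.020 and none called. Ppargc1a, a coactivator of mitochondrial biogenesis, had 930 ± 374 and 840 ± 188 normalized counts, Nrf1 217 ± 19.4 and 214 ± 31.4, and Tfam, which packs mitochondrial DNA, 390 ± 32.0 and 355 ± 55.3.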

How the data were processed

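Jejunal RNA of 5 Vil-Cre and 5 Vil-Cre:NDI1 mice was sequenced, with 1 library per mouse. Per the paper's methods, the authors trimmed the reads, aligned them with STAR to the GRCm38 genome plus NDI1, assigned them to genes with Salmon and analysed the counts with DESeq2. What they deposited is a signal per gene, called normalized counts here. That these are whole counts divided by 1 size factor per library was read from the values, not from a stated method. The annotation release and strand setting are not given in the sources used here. No per-sample column was left out. All values (100%) of each library are multiples of its smallest one, within 0.02 reads, so reads were recovered for count tests. The steps of Vil-Cre 3 and 4 (1.00184 and 1.01109) lie nearest to 1, and these tests were repeated on the other 8 libraries. Values such as 2.00369 in Vil-Cre 3 and 2.02218 in Vil-Cre 4 are multiples of the step and not whole numbers. Reads could therefore be told from rounded values in these libraries too.

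The set and the gene lists were chosen with earlier results of these data known. Genotypes were compared with limma 3.58.1 (R 4.3.3) on log2(value + 1) with a variance trend, over genes with at least 10 normalized counts in at least 5 mice, adjusted over 14301 genes at a threshold of 0.05. Nothing in the labels names the cages or litters, so p-values measure the spread between these 10 mice. Intervals and the limit of 3 reads for a count of 0 cover counting error only, apart from limma's. Levels per length used the union of exons in GENCODE M21. The main limma fit, but not its alternatives, was tested on simulated reads with known changes. Those changes were larger than any estimated for the genes of the set. Alternatives were pseudocounts of 0.1 and 8, no filter, a minimum of 50, equal totals, quantile normalization, array weights, a replicate block, DESeq2 1.42.0 and edgeR 4.0.16, the longest transcript as length, 2 other totals for shares, and leaving out each mouse. Named genes (34, of which 30 were tested) were the 5 smallest p-values, the highest and lowest per length in each complex, defining subunits, isoform pairs, and the steadiest and most variable member.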

Additional observations from a re-analysis of the deposited data

Results flagged for a closer look

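Of 62 sets of 5 mice examined (the named tested genes and the share of all counts, in each genotype), 7 had a mouse that stood apart from the other 4 by Dixon's criterion, where chance gives about 1 in 20, or 3.1. Vil-Cre:NDI1 2 stood apart for Cox7b, at 2638 normalized counts, while the rest of its genotype had 1934 to 2084. The other 6 were all low values of Vil-Cre:NDI1 4. In that mouse Sdha had 5500 normalized counts (others 6362 to 6583), Cox7c 2041 (2683 to 2783), Cox6a1 3945 (4800 to 5092), Cox5a 1684 (1906 to 1980.1), Cox6b1 2267 (2879 to 3021) and Atp5g3 5568 (6674 to 6902). These 6 values come from 1 library and are not independent of each other.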

How the results depend on the processing

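In every setting 0 of the tested members were called. At an unadjusted p under 0.05 their number was 0 of 44 with limma (4.24% of all genes), 2 with array weights (5.54% of all genes), 0 with edgeR (4.65%) and 3 with edgeR on 8 libraries (8.74%). With DESeq2 it was 1 of 48 (4.81% of all genes), and with DESeq2 on 8 libraries 11 of 48, or 22.9% against 8.11% of all genes. When 1 mouse was left out it was 3 without Vil-Cre 3 (5.05% of all genes), 2 without Vil-Cre:NDI1 4 (4.56%), 1 without Vil-Cre 1 (3.86%) and 0 otherwise. The 8-library fits were chosen after seeing the data, and they leave out Vil-Cre 3, where 39 of the 44 genes lay above their own mean. Over all genes, the number called was 1 with limma, 2 with a minimum of 50, 2 with array weights, 31 with DESeq2 and 276 with DESeq2 on 8 libraries, and 1 to 3 when 1 mouse was left out (2 without Vil-Cre:NDI1 1, 3 without Vil-Cre:NDI1 5). The cause was not tested. Log2 fold changes near 0 turned sign. With equal totals, which moved the median of all genes from 0.0052 to -0.057, Cox6a1 was -0.034, Atp5b -0.0037, Cox4i1 -0.014, Cox5a -0.010 and Cox6b1 -0.0020, each still above that median. After quantile normalization Cox6a1 was -0.026, Atp5b -0.070, Cox4i1 -0.057, Atp5o -0.00011 and Cox6b1 -0.0092. With array weights Atp5g2 was 0.0027. Leaving out 1 mouse moved the value by over 1.5 times in 25 of the 30 named genes tested, none of them called. It gave -0.054 to 0.16 for Atp5s (below 0 without Vil-Cre 2 or Vil-Cre:NDI1 2), -0.019 to 0.094 for Cox6a1 (below 0 without Vil-Cre 5) and -0.088 to 0.013 for Atp5g2 (above 0 without Vil-Cre:NDI1 4). It gave share differences, in percentage points, of -0.029 to 0.048 for Cox4i2, -0.778 to 1.29 for Cox7a1, -0.0971 to 0.255 for Atp5g1, -2.12 to -1.04 for Atp5g2 and 0.925 to 2.22 for Atp5g3. The number of members above 0 was 38 to 43, and their median 0.053 to 0.14. With the replicate number as a block, 1 gene and 0 members were called and the median of the members was 0.087. Mice of the same number did not deviate together (r from -0.116 to 0.136), and 1 of 5 numbers matched best with its own. This gave no sign of pairing by number but cannot exclude it, because paired mice need not deviate together. Isoforms under 10 normalized counts are limited by depth.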
